A study of Mus musculus with 2 samples.

Results

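The mitochondrial ribosomal protein genes are the nuclear genes for the protein subunits of the ribosome inside mitochondria. They were taken as all protein-coding genes whose symbol is Mrpl or Mrps followed by a number and, at most, a letter from a to c. This gave 77 of the 43346 Ensembl genes in the tables, 48 named Mrpl for the large subunit and 29 named Mrps for the small subunit. The annotation used for symbols (GENCODE M21) holds 78 such genes. Mrpl33 was not matched by its gene identifier, and its main transcript, found by transcript identifier, stood at 141.71 TPM in pup 1 and at 143.23 TPM in pup 2. It is left out of the 77.

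Total RNA was measured in whole livers of 2 newborn B6NCrl mice (age 0 day), an inbred strain of the C57BL/6N background, pup 1 and pup 2 of 1 dam. There was 1 group of 2 biological replicates, with 1 liver per library, no treatment and no genetic change named in the labels, and the sex of the pups was not collected. Each library started from 10 ng of RNA over 200 nt with ERCC spike-in RNAs. Summed expected counts were 42124582 in pup 1 and 41443673 in pup 2. TPM divides reads by transcript length and scales each library to a common total, so it can be compared between genes, while CPM is a gene's expected count scaled by the library total alone. The 7 hepatocyte markers were all abundant, the lowest at 2390 TPM in pup 1 and at 2515 TPM in pup 2, with Alb at 14714.9 and 13681 TPM. All 7 skeletal muscle markers were higher in pup 2, by 2.14 to 4.42 on the log2(TPM + 1) scale, and so were all 6 pancreatic acinar markers, by 1.55 to 4.96. In pup 1 the muscle list had a median of 5.32 TPM and the pancreas list 0.265 TPM, against 74.8 and 17.07 TPM in pup 2. Their part in the results below was not tested, apart from 1 rescaling without those genes. In bulk tissue, fewer cells of a type and less RNA per cell cannot be told apart.

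The mitoribosome translates the mRNAs of the mitochondrial genome, which encode core subunits of the respiratory chain and of ATP synthase. Its rRNAs are made inside the organelle, while all its proteins are made in the cytosol and imported. Many of these proteins descend from ribosomal proteins of the bacterial ancestor, and others were added in the mitochondrial lineage, as mammalian mitoribosome structures show. Liver is rich in mitochondria, and respiratory capacity is known to increase around birth.

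To show the sequence at the start of genes from both ends of the range of levels, the 250 bases before the RefSeq start (GRCm38.p6) are given 5′ to 3′ on the gene's own strand. Mrpl17 and Mrpl52 were the 2 highest genes, Mrpl45 and Mrps27 were among the 8 lowest, and Mrps12 and Mrpl49 start beside a gene of the opposite strand. Capitals mark matches, on either strand, to CCGGAAG (ETS factors), GCGCATGC (NRF1) and AAGATGG (YY1).
Mrpl17 (chr7:105811088-105811337, minus strand): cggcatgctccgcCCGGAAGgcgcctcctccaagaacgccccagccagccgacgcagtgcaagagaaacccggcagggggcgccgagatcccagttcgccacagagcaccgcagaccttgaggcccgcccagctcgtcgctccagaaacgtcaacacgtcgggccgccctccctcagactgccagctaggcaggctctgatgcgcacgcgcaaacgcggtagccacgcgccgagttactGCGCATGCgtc
Mrpl52 (chr14:54426659-54426908, plus strand): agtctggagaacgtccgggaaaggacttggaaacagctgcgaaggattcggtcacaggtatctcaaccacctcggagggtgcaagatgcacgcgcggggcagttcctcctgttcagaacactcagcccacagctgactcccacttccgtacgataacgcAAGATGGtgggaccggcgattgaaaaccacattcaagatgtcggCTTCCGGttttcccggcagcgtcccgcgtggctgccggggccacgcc
Mrpl45 (chr11:97315466-97315715, plus strand): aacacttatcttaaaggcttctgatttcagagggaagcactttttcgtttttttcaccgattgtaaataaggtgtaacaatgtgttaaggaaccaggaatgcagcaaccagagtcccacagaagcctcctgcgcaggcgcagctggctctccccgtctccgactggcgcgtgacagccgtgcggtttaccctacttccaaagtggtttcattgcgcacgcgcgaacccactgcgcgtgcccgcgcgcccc
Mrps27 (chr13:99344536-99344785, plus strand): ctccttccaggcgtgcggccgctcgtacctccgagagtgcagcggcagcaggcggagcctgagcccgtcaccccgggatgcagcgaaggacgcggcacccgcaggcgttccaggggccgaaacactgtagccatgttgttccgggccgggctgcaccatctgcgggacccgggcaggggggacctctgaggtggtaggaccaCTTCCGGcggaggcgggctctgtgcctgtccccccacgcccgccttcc
Mrps12 (chr7:28741822-28742071, minus strand): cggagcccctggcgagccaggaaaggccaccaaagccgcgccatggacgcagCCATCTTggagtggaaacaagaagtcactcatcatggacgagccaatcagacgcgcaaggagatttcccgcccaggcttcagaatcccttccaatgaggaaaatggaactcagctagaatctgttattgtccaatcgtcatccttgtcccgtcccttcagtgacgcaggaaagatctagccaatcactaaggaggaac
Mrpl49 (chr19:6057756-6058005, minus strand): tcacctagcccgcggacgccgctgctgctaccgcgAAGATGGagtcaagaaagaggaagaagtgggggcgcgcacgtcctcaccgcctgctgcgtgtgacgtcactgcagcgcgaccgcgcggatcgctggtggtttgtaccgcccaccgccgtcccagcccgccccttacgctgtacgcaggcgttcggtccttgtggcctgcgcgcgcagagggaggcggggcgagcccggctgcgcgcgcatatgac

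In Mrpl17 the ETS letters began 237 bases and the NRF1 letters 11 bases before the RefSeq start. In Mrpl52 the YY1 letters began 91 bases and the ETS letters 47 bases before it. Mrps27, near the bottom of the range, also held ETS letters, 48 bases before the start, and the Mrpl45 stretch held none of the 3 motifs. The matches describe letters in these windows and do not show binding.

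Of the 77 genes, 68 had a RefSeq promoter entry of 300 bases, reaching 50 bases past the start. CCGGAAG on either strand was in 25 of the 68 (36.8%), against 23.8% of the 4175 promoters of protein-coding genes within the same range of TPM and 9.93% of all 27025 promoters. AAGATGG was in 13 (19.1%), against 9.27% and 7.28%, and GCGCATGC in 7 (10.3%), against 6.75% and 3.05%. The SP factor motif GGGCGG was in 34 (50%), against 69.2% and 38.2%, and TATAAA was in 5 (7.35%), against 9.22% and 15.7%. Overlapping matches were counted for each motif. Genes for cytosolic ribosomal proteins held CCGGAAG in 40.0% and AAGATGG in 18.3% of 60 promoters, so shares of this size were not limited to the mitochondrial set. The 25 genes with ETS letters had a median of 71.1 TPM in pup 1 and 71.7 in pup 2, and the 43 genes without them 41.7 and 36.0 TPM. For AAGATGG the medians of genes with and without it were 48.8 and 50.2 TPM in pup 1. The 7 genes with GCGCATGC also had the higher median, 70.6 against 48.8 TPM in pup 1 and 71.7 against 47.1 TPM in pup 2. These medians are in TPM, and transcript length was not taken into account. The starts in RefSeq and GENCODE were over 50 bases apart for 26 of the 74 entries of these genes, so part of the windows may not be the start used in liver.

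All 77 genes reached 1 TPM in both livers, against 52.9% of the 21474 protein-coding genes, and 76 reached 10 TPM in both. At 100 TPM or more in both livers were 14 genes. The median gene stood at 50.16 TPM in pup 1 and at 50.58 TPM in pup 2, or 50.4 ± 0.297 (SD, n = 2). By their mean over the livers, all 77 were above 9.78 TPM, the median of protein-coding genes with 1 TPM or more, and 59 (76.6%) were above the upper quartile of 28.4 TPM. Together they held 0.518% of all TPM in pup 1 and 0.511% in pup 2. Their share of expected counts was smaller, 0.343% on average, and their median effective length was 837 bases against 2189 bases for detected protein-coding genes.

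**Figure D1:**
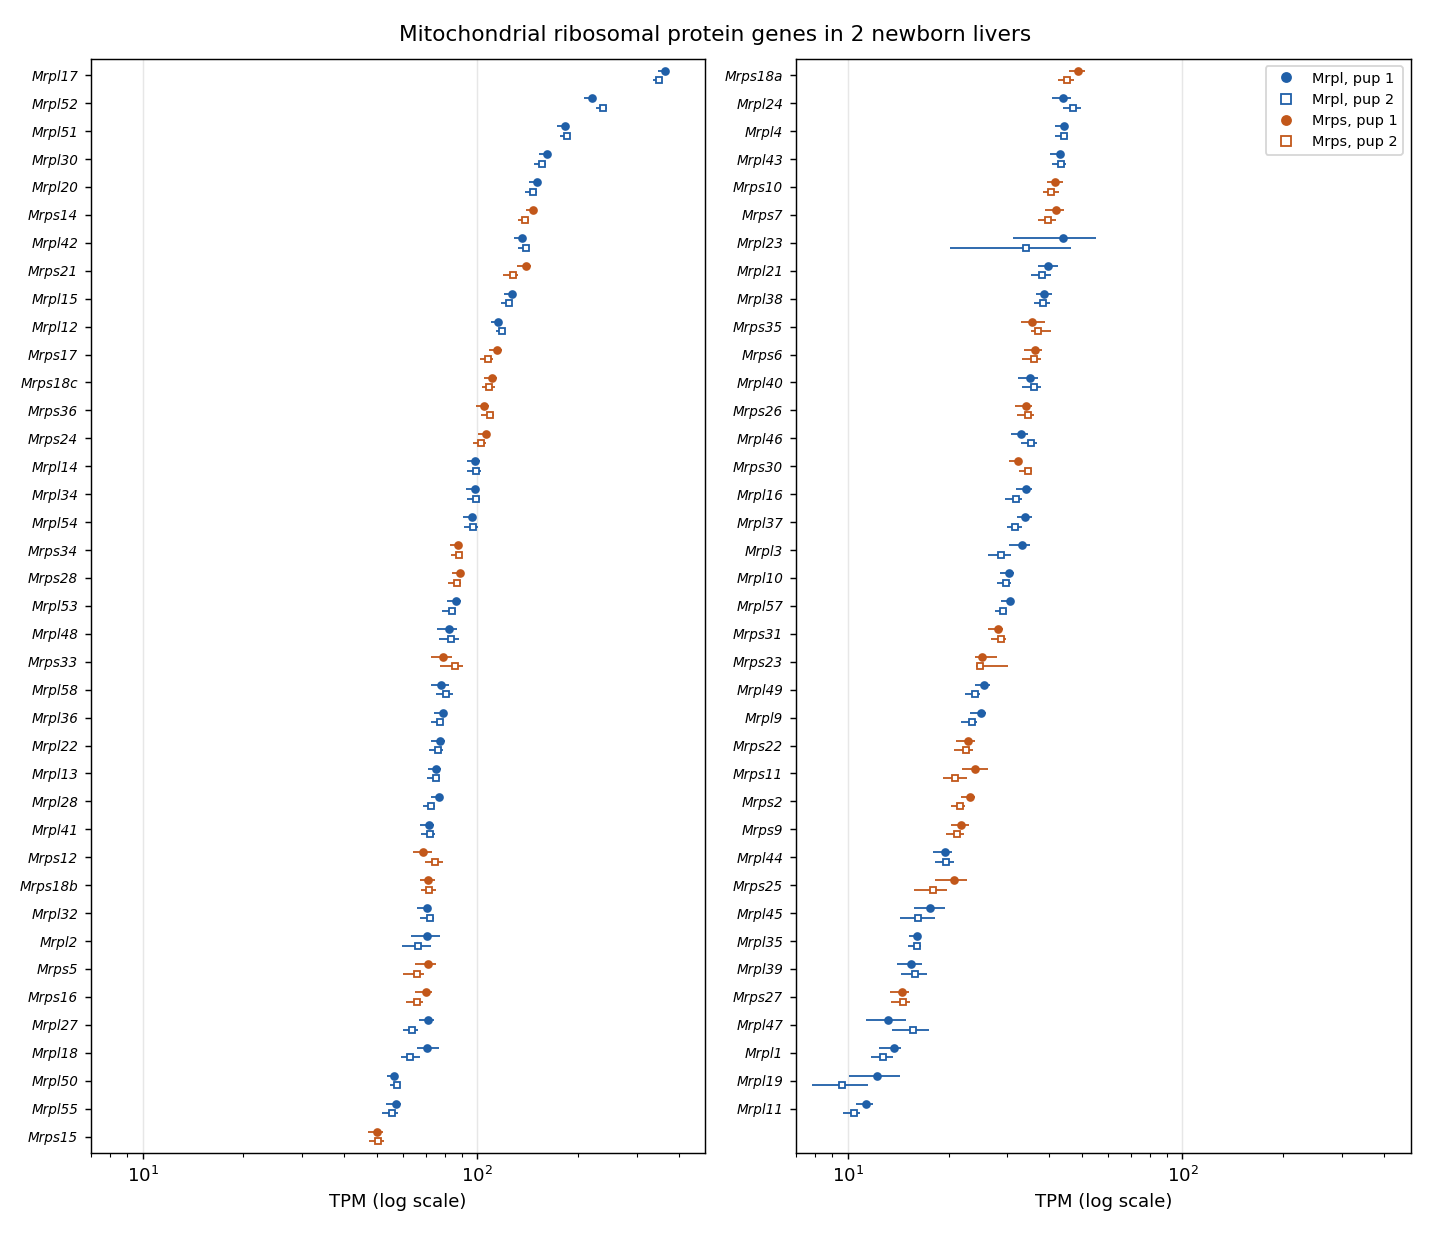
TPM on a log scale of each of the 77 mitochondrial ribosomal protein genes in pup 1 (filled circles) and pup 2 (open squares), ordered by mean TPM, with Mrpl genes in blue and Mrps genes in orange; horizontal lines are the authors' credible intervals. Levels ran from about 10.9 TPM for Mrpl11 to 356 TPM for Mrpl17, and the 2 livers of 1 gene lay close together, with Mrpl23 showing the widest intervals.

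The highest gene was Mrpl17 (ENSMUSG00000030879.9, chr7:105803206-105811099, minus strand), a counterpart of the bacterial large subunit protein L17. It stood at 362.41 TPM in pup 1 and at 349.82 TPM in pup 2, a mean of 356 ± 8.90 (SD, n = 2). Mrpl52, a large subunit protein with no bacterial counterpart, followed at 220.46 and 237.84 TPM. Mrpl51, also found in mitochondria only, stood at 182.27 and 185.26 TPM. The first-ranked gene was thus well above the next in each liver, and the order of these 3 was the same in both.

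Mrpl30, the counterpart of bacterial L30, had 161.56 and 156.27 TPM. Mrpl20, whose bacterial counterpart is needed early in assembly of the large subunit, had 150.46 and 146.41 TPM. The small subunit protein gene Mrps14, for the counterpart of bacterial S14, had 146.68 and 139.16 TPM. Mrpl42, a mitochondrion-specific large subunit protein, stood at 135.96 and 139.43 TPM, and Mrps21, the counterpart of bacterial S21, at 139.56 and 127.35 TPM. Mrpl42 and Mrps21 changed places between the livers, so their order does not hold beyond the spread.

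The lowest gene was Mrpl11 (ENSMUSG00000024902.4, chr19:4962147-4966999, plus strand), whose protein sits at the base of the stalk that contacts translation factors. It stood at 11.37 TPM in pup 1 and at 10.41 TPM in pup 2. Mrpl19, the counterpart of bacterial L19, had 12.22 and 9.64 TPM. Mrpl1, for the protein of the L1 stalk beside the exit site for tRNA, had 13.74 and 12.77 TPM. Mrpl47, the counterpart of bacterial L29, had 13.19 and 15.70 TPM. The order of these 4 differed between the livers.

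Mrps27, a pentatricopeptide repeat protein of the small subunit, had 14.48 and 14.63 TPM. Mrpl39, a mitochondrion-specific protein near the exit of the peptide tunnel, had 15.42 and 15.89 TPM. Mrpl35, the counterpart of bacterial L35, had 16.11 and 16.06 TPM, and Mrpl45, which lines the tunnel exit and faces the inner membrane, had 17.66 and 16.19 TPM. The lowest expected count of any of the 77 genes in a liver was 594, and the median was 1668.

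Proteins that sit together in the ribosome came from genes of unlike level. In the stalk, Mrpl12, the factor-binding protein present in several copies per ribosome in bacteria, stood at 115.23 and 118.83 TPM. Mrpl10, which anchors it, stood at 30.27 and 29.72 TPM, and Mrpl11 near 10.9 TPM. The highest stalk gene was thus 10.7 times the lowest in TPM, a unit that divides by length. Lengths differ, at 2882 bases for Mrpl11 and 1316 bases for the leading transcript of Mrpl12. The 4 genes listed for the mitochondrion-specific part of the central protuberance (Mrpl38, Mrpl40, Mrpl46 and Mrpl48) spanned 2.42-fold. Their means ran from 34.2 TPM for Mrpl46 to 82.8 TPM for Mrpl48, and the list may not be complete. The 6 genes listed for the rim of the exit tunnel (Mrpl22, Mrpl23, Mrpl24, Mrpl39, Mrpl44 and Mrpl45) spanned 4.91-fold, from Mrpl39 to Mrpl22 at 76.8 TPM. That list may not be complete either. It leaves out Mrpl47, the counterpart of bacterial L29 (14.4 TPM on average), and Gadd45gip1 (29.4 TPM). The span is therefore that of the 6 listed genes only.

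The S18 family has 3 paralogs that take different places in mammalian mitoribosomes. Mrps18c, which holds the place of bacterial S18, was the highest at 110.27 TPM in pup 1 and at 108.62 TPM in pup 2. Mrps18b, in another place of the small subunit, stood at 71.14 and 71.74 TPM. Mrps18a, which sits in the large subunit despite its name, stood at 48.78 and 45.30 TPM. The order of the 3 was the same in both livers, and their ranges did not overlap. Mrps36, now known as a subunit of the 2-oxoglutarate dehydrogenase complex and not of the ribosome, stood at 104.65 and 108.79 TPM.

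By symbol, the median Mrpl gene stood at 56.8 TPM in pup 1 and at 56.7 TPM in pup 2, and the median Mrps gene at 48.8 and 45.3 TPM. The log2 ratio of large over small was 0.22 and 0.32, or 0.27 ± 0.074 (SD, n = 2). Sorting by place in the structure moved Mrps18a and Mrps30 to the large subunit and left out Mrps36, and the ratio became 0.18 ± 0.012 with 50 against 26 genes. The direction was not stable. Adding the 5 subunits with other names gave -0.096, and keeping only genes that overlap no other gene gave -0.25. The difference of mean log2(TPM + 1) was 0.067, small beside the spread of 1.07 among the genes.

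The subunits with other names fell within the same range. The small subunit proteins Chchd1 (79.02 and 82.34 TPM), Aurkaip1 (81.69 and 78.70 TPM) and Dap3 (53.10 and 51.13 TPM) were above the median of the 77. Ptcd3, a pentatricopeptide repeat protein of the small subunit, stood at 22.76 and 23.40 TPM. Gadd45gip1, a large subunit protein at the tunnel exit, stood at 28.16 and 30.64 TPM, with credible intervals that did not overlap. The small subunit rRNA mt-Rnr1 stood at 2082.45 and 2435.05 TPM and the large subunit rRNA mt-Rnr2 at 7085.72 and 7275.26 TPM. Both rRNAs were higher in pup 2 with separate intervals, but the priming used for these libraries is not stated, so rRNA levels cannot be read against mRNA levels.

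Left without a class were 2 genes, Mrps36 and Mrpl55 (57.1 and 55.74 TPM). The 44 proteins with a bacterial counterpart had a higher median TPM than the 31 classed as mitochondrion-specific. The 31 include Mrps18a and Mrps18b of the S18 family, so the class does not mean that no related bacterial protein exists. The medians were 70.3 against 35.5 TPM in pup 1 and 64.8 against 37.0 TPM in pup 2, a log2 ratio of 0.90 ± 0.13 (SD, n = 2). In both livers this held within the large subunit by place (70.7 against 43.0 TPM in pup 1) and within the small subunit (69.5 against 31.0 TPM). In CPM, which does not divide by length, the ratio was 0.03 in pup 1 and 0.15 in pup 2. The 2 classes differ in transcript length, with the median effective length of the first at 802 bases and that of the second at 1056 bases. Among the 26 shortest genes the 2 classes stood at 93.5 and 86.5 TPM in pup 1, among the 25 of middle length at 70.9 and 35.5 TPM, and among the 26 longest at 23.2 and 28.0 TPM.

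Length followed level closely across the set. Spearman's rho between TPM and effective length over the 77 genes was -0.81 in pup 1 and -0.80 in pup 2. Over the 5192 protein-coding genes in the same range of TPM it was -0.32 and -0.36, over 81 detected cytosolic ribosomal protein genes -0.38 and -0.39, and over 78 respiratory chain genes -0.46 in both. Length stands in the denominator of TPM, so part of such a relation is built into the unit. In CPM rho was -0.29 in both livers for the 77 genes, and 0.23 for cytosolic ribosomal protein genes and 0.22 for respiratory chain genes in pup 1. These correlations run across genes, which are not independent replicates.

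**Figure D2:**
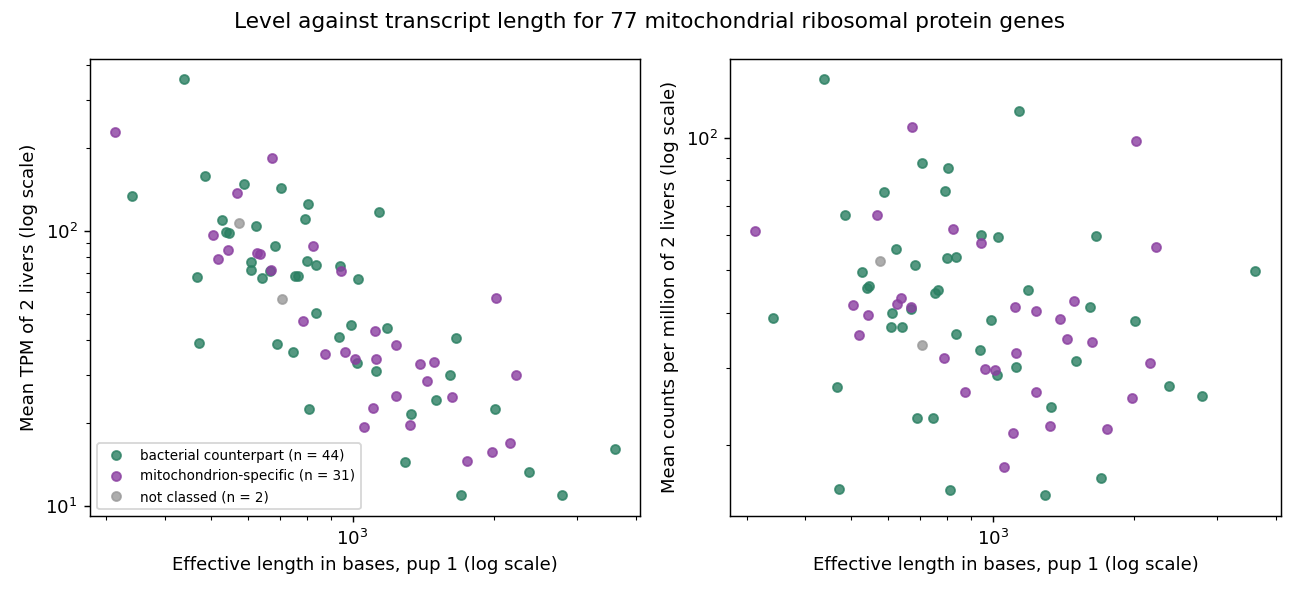
Mean TPM (left) and mean CPM (right) of the 77 genes against effective transcript length in pup 1, all on log scales, coloured by whether the protein has a bacterial counterpart. TPM was lower for longer genes (rho -0.81 in pup 1), while CPM showed a weaker relation (-0.29).

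The SD of log2(TPM + 1) across the 77 genes was 1.07 ± 0.013 (SD over livers, n = 2), and the highest gene was 32.7 times the lowest. The same SD was 1.88 for all 84 cytosolic ribosomal protein genes, which include 3 that did not reach 1 TPM in both livers, and 1.34 for the 78 nuclear genes of the respiratory chain. Between the quartiles, however, the 77 genes spanned 2.89-fold, against 2.10-fold for cytosolic ribosomal protein genes and 3.04-fold for the respiratory chain.

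The genes of the cytosolic ribosome, which makes all nuclear-encoded proteins, had a median 8.37 times that of the mitochondrial set. That is a log2 ratio of 3.07 ± 0.047 (SD, n = 2), and in CPM the median was 5.32 times that of the set. The nuclear genes of the respiratory chain, whose products join those made by the mitoribosome, had a median 6.79 times that of the set, a log2 ratio of 2.76 ± 0.010, and 4.07 times in CPM. The medians of 3 other lists of mitochondrial translation were lower than that of the ribosomal genes, though single genes such as Slirp were not. The median of the 77 genes was 4.38 times that of 15 translation factors, 5.36 times that of 24 assembly factors and 6.37 times that of 17 mitochondrial tRNA synthetases. In CPM, which does not divide by length, these folds were 2.14, 2.46 and 2.30.

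**Figure D3:**
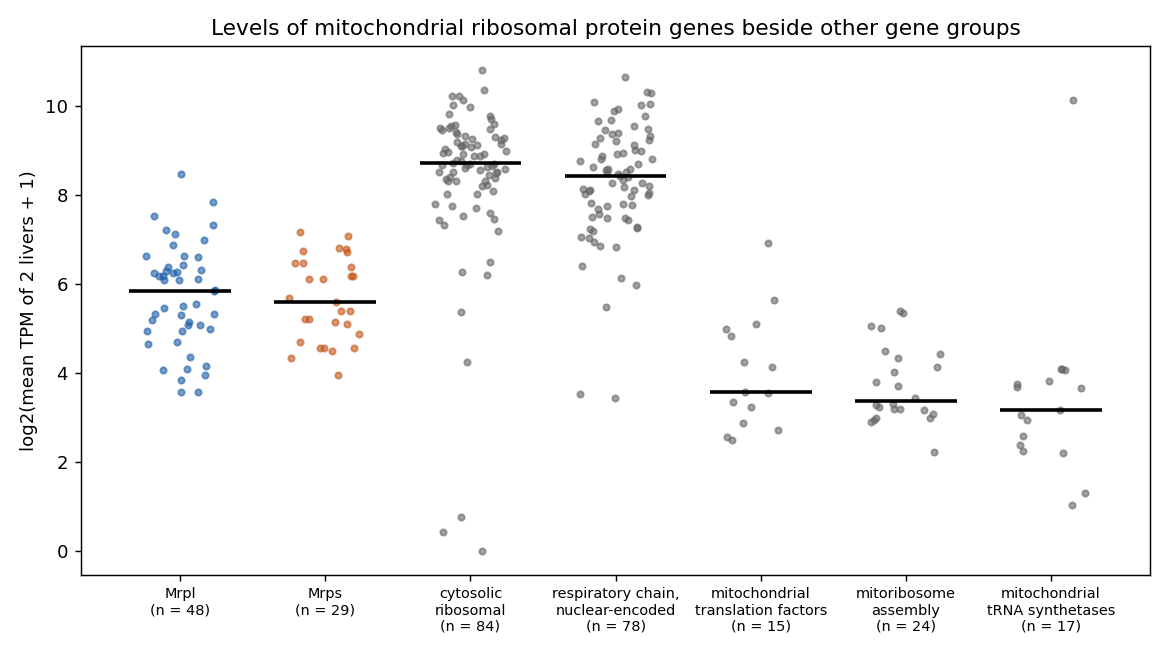
Mean level of each gene over the 2 livers, as log2(TPM + 1), for Mrpl genes, Mrps genes and 5 other groups; each point is a gene and the black bar is the group's median. The medians of the cytosolic ribosomal proteins and of the respiratory chain lie above that of the mitochondrial set, and the medians of translation factors, assembly factors and tRNA synthetases below it.

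Among the translation factors, Slirp, which stabilises mitochondrial mRNAs with Lrpprc, was the highest at 127.60 TPM in pup 1 and at 114.86 TPM in pup 2. The elongation factor genes Tufm (49.17 and 49.10 TPM), Tsfm (33.63 and 32.85 TPM) and Gfm1 (32.34 and 28.95 TPM) came next with Lrpprc (29.78 and 25.51 TPM). Lrpprc was the only 1 of the 15 with separate credible intervals. Initiation factors were lower, with Mtif2 at 17.45 and 18.26 TPM and Mtif3 at 10.80 and 10.87 TPM.

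Oxa1l, which inserts new proteins into the inner membrane, stood at 16.74 and 16.52 TPM. The recycling factors Mrrf (9.09 and 12.23 TPM) and Gfm2 (9.61 and 8.59 TPM) and the elongation factor Guf1 (8.23 and 8.62 TPM) were near 10 TPM. The initiator tRNA formyltransferase Mtfmt (6.27 and 6.36 TPM), the release factor genes Mtrf1l (5.75 and 5.38 TPM) and Mtrf1 (4.74 and 4.53 TPM), and the translational activator Taco1 (4.95 and 4.78 TPM) were the lowest. By mean TPM, 8 of the 15 factors stood below the lowest of the 77 ribosomal protein genes.

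Among assembly factors Rbfa, which matures the small subunit, was the highest (40.31 and 42.13 TPM) and the rRNA methyltransferase Mettl15 the lowest (3.57 and 3.8 TPM). Among the synthetases Mars2 was the lowest (1.04 and 1.01 TPM), and Lars2 stood apart at 1144.94 and 1107.24 TPM. Its expected counts were 154055 and 149967. Whether the reads given to Lars2 come in part from another sequence was not tested, so this value may not be the level of the gene. Tfam, the mitochondrial transcription factor and DNA packaging protein, led the transcription list at 28.93 and 31.91 TPM, and Mterf1b was its lowest at 0.94 and 0.92 TPM.

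The levels of the 77 genes were close in the 2 livers. The median log2 ratio of pup 2 over pup 1 was -0.022 on the log2(TPM + 1) scale, against -0.051 for all 12711 genes with a mean of 1 TPM or more. The median was 0.012 in CPM and 0.040 with counts scaled by the median ratio, so its sign depends on the scaling, and without muscle and pancreas genes in the total it was -0.020. In pup 2, 46 of the 77 (59.7%) were lower and 31 higher, against 63% lower and 36.6% higher among all genes. In CPM 33 were lower, and 25 with counts scaled by the median ratio.

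No gene of the 77 was at least 2-fold apart between the livers with separate credible intervals, against 0.629% of all genes, and none was 1.5-fold apart, against 1.46%. With separate intervals at any size there was 1 gene, against 20.1% of all genes and 27% of the 5406 genes within the same range of TPM. The typical size of the ratio, its median absolute log2 value, was 0.046 for the 77 genes and 0.094 for the other 5329 genes in the range. It was also 0.046 for the respiratory chain and 0.040 for cytosolic ribosomal protein genes, of which 21 of 78 and 18 of 81 had separate intervals. Intervals narrow with reads, and median counts were 1668 for the 77 genes, 1828 for the other genes in the range, 6794 for the respiratory chain and 8801 for the cytosolic ribosome. With only 2 livers no test of the difference between these groups was made.

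**Figure D4:**
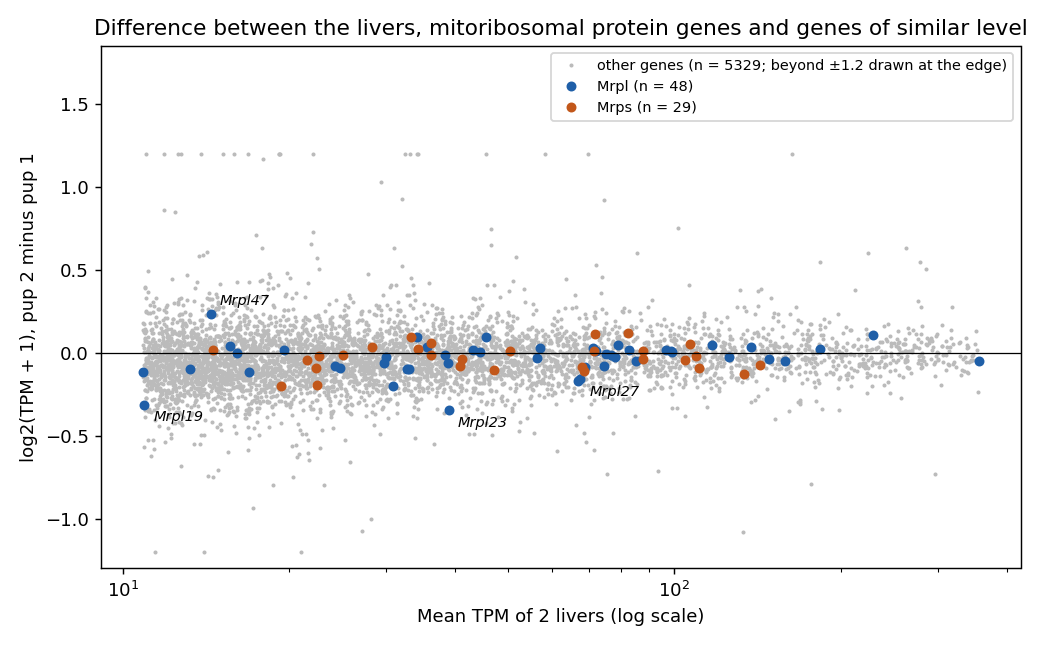
Difference between the livers in log2(TPM + 1), pup 2 minus pup 1, against mean TPM on a log scale, for the Mrpl genes, the Mrps genes and the 5329 other genes within the same range of TPM. The 77 genes lie between -0.35 (Mrpl23) and 0.23 (Mrpl47), near the line of no difference.

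The root mean square of the 77 log2 ratios was 0.097 in TPM and 0.078 in CPM, beside 0.053 expected from counting error. The livers are those of different animals, and TPM also carries the estimate of effective length in each. The exact 95% counting interval of the ratio of CPM left out 1 for 15 of the 77 genes, against 39.7% of all genes and 47.5% of genes in the range. The gene with separate credible intervals was Mrpl27 (ENSMUSG00000024414.9, chr11:94653767-94660089, plus strand), the counterpart of bacterial L27, which reaches to the peptidyl transferase centre. It stood at 71.38 TPM in pup 1 and at 63.73 TPM in pup 2, a log2 difference of -0.16. Mrpl27 shares exons with Eme1 on the opposite strand, and the use of strand in counting is not stated, so reads of the 2 cannot be told apart with certainty.

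The 5 lowest ratios were those of Mrpl23 (-0.35), Mrpl19 (-0.31), Mrps25 (-0.20), Mrpl3 (-0.20) and Mrps11 (-0.19). Their TPM in pup 1 and pup 2 was 43.82 and 34.20 for Mrpl23, a protein at the tunnel exit, and 20.75 and 17.95 for Mrps25, a mitochondrion-specific small subunit protein. For Mrpl3, the counterpart of bacterial L3 near the catalytic centre, it was 33.14 and 28.75, and for Mrps11, the counterpart of bacterial S11, 24.04 and 20.92. The credible intervals overlapped in all 5. The effective length of Mrpl19, a mean over its transcripts, was 1701 bases in pup 1 and 1942 in pup 2. In CPM the log2 ratios were -0.27 for Mrpl23, -0.11 for Mrpl19, -0.10 for Mrps25, -0.12 for Mrpl3 and -0.11 for Mrps11. The order changed there, with Mrpl45 second lowest at 0.912 times the CPM of pup 1, so only Mrpl23 was lowest on both scales.

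The 5 highest ratios were those of Mrpl47 (0.23), Mrps33 (0.12), Mrps12 (0.11), Mrpl52 (0.11) and Mrps30 (0.096). Mrps33, a mitochondrion-specific small subunit protein, stood at 78.76 and 85.70 TPM. Mrps12, the counterpart of bacterial S12 at the decoding centre, stood at 68.92 and 74.67 TPM. Mrps30, a large subunit protein despite its name, stood at 32.21 and 34.50 TPM. All 5 had overlapping credible intervals. In CPM the log2 ratios were 0.17 for Mrpl47, 0.050 for Mrps33, 0.13 for Mrps12, 0.14 for Mrpl52 and 0.13 for Mrps30. Mrpl46, Mrpl58 and Mrpl24 were among the genes above Mrps33 on that scale.

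On the TPM scale the 2 classes of protein differed in the share of genes lower in pup 2, but most genes of both were higher there with counts scaled by the median ratio. Among the 44 genes with a bacterial counterpart, 35 were lower in pup 2 and 9 higher, with a median log2 ratio of -0.047, close to the -0.051 of all genes. Among the 31 mitochondrion-specific genes, 10 were lower and 21 higher, with a median of 0.016. In CPM 23 of the 44 and 9 of the 31 were lower, and 17 and 7 with counts scaled by the median ratio. In TPM the counts were alike in the large subunit (21 of 28 against 7 of 21 lower) and in the small subunit (14 of 16 against 3 of 10 lower). The genes of a class share the same 2 libraries, so these counts describe this pair of livers.

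The lowest ratio, that of Mrpl23, belonged to a gene that shares its sequence with a processed pseudogene. Mrpl23 (ENSMUSG00000037772.8, chr7:142532686-142540747, plus strand) stood at 43.82 and 34.20 TPM. Mrpl23-ps1 (chr2:74591330-74591909, minus strand) stood higher, at 65.89 and 77.12 TPM. Over 421 aligned bases of coding sequence the GENCODE M21 transcripts of the gene and the pseudogene had 0 differences. A stretch of 120 bases, from base 96 of the coding sequence, is given for both to show this.
Mrpl23: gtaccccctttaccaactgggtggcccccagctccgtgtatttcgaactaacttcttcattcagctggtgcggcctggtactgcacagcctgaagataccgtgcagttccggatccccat
Mrpl23-ps1: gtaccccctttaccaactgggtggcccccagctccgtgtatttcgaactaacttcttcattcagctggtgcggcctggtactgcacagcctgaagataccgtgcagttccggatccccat
The sum of the gene and the pseudogene was 109.71 TPM in pup 1 and at 111.32 TPM in pup 2, a log2 ratio of 0.021. The gene's part of the summed expected counts was 39.5% in pup 1 and 30.9% in pup 2. The level of Mrpl23 and its ratio are therefore uncertain by as much as this division of reads.

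A search of all 77 coding sequences found a pseudogene of at least 90% identity over 200 aligned bases for 24 genes, and for 20 of them the pseudogene was in the tables. Mrpl23 was the only gene whose pseudogenes held over 5% of the summed counts, at 60.5% and 69.1%. Mrps33 followed at 4.79% and 3.06%. Of the 77 genes, 41 share their span and 32 share exons with another gene, which also leaves reads open to division. The shares of all protein-coding genes with such a pseudogene or overlap were not computed, so these counts are not a trait of the set.

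Many of the 77 genes start next to another protein-coding gene on the opposite strand. Such a head-to-head partner, with starts up to 1000 bases apart or up to 200 bases of overlap, was found for 23 of the 77 (29.9%), against 12.3% of the 11585 protein-coding genes with 1 TPM or more and 13.9% of those within the same range of TPM. In 19 of the 23 pairs the mitoribosomal gene was the higher 1, with a median of 8.73 times the partner over all pairs. Of 703 such pairs of the other protein-coding genes within the same range of TPM, the gene was the higher 1 in 522 (74.3%), with a median of 3.37 times its partner. A gene taken from this range is thus often above its partner, and no test of the difference was made. Both folds are in TPM, which divides by length, and they were not computed in CPM. The median effective length was 837 bases for the 77 genes and 1748 bases for protein-coding genes within the range. The pairs depend on the GENCODE starts. Mrpl46 and Mrps11, on opposite strands, were not counted because those starts overlap by more than 200 bases. Their RefSeq starts, at 78783089 and 78783131, do not overlap.

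**Figure D5:**
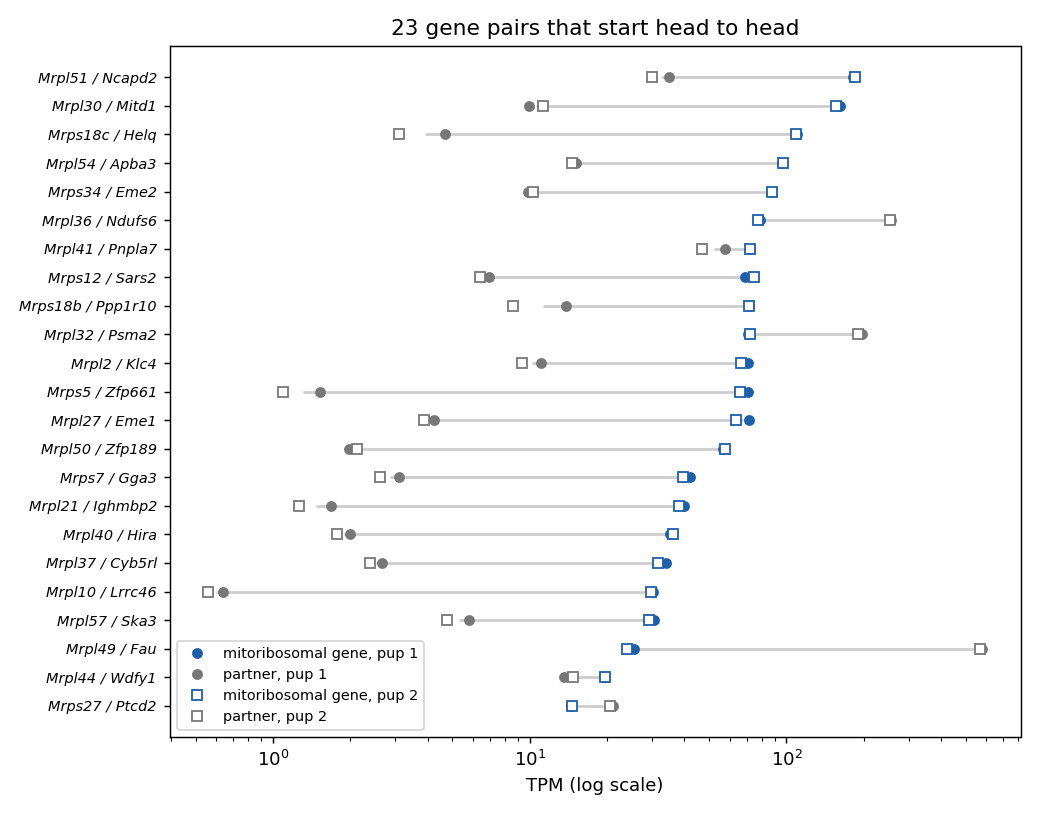
TPM on a log scale of 23 mitochondrial ribosomal protein genes (blue) and their head-to-head partners (grey) in pup 1 (filled circles) and pup 2 (open squares); grey lines join the means. The partner was higher in 4 pairs, with Fau the farthest above its partner Mrpl49.

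Mrps12 and Sars2, the gene of the mitochondrial seryl-tRNA synthetase, have GENCODE starts 172 bases apart, within the Mrps12 stretch printed above. Mrps12 stood at 68.92 and 74.67 TPM and Sars2 at 6.97 and 6.41 TPM, 10.7-fold apart although both products serve mitochondrial translation. This fold is in TPM, which divides by length. The leading transcript of Mrps12 has 722 bases, and the effective length of Sars2 was 1811 bases in pup 1. Mrpl49, a mitochondrion-specific large subunit protein, and Fau, the gene of a cytosolic small subunit protein fused to a ubiquitin-like protein, start 59 bases apart. Here the partner was higher, at 576.38 and 566.82 TPM against 25.58 and 23.95 TPM for Mrpl49. Both stretches held AAGATGG on 1 strand, 198 bases before the RefSeq start of Mrps12 and 215 bases before that of Mrpl49. Each match lay past the GENCODE start of the partner, within the partner gene and not between the starts of the pair.

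The other 3 pairs with a higher partner were Mrpl36 with Ndufs6, a complex I subunit (77.9 against 254 TPM on average), Mrpl32 with the proteasome gene Psma2 (71.3 against 194 TPM), and Mrps27 with Ptcd2 (14.6 against 20.8 TPM). At the other end stood Mrps5 with Zfp661, at 71.11 and 65.81 TPM against 1.53 and 1.09 TPM, and Mrpl10 with Lrrc46, whose 0.64 and 0.56 TPM were under 1 TPM in both livers. Pairs of opposite strands can share reads where they overlap and strand is not used.

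The deposited transcript tables list 275 transcripts for the 77 genes, 19 of which have 1 transcript. The same transcript held the largest percent of the gene's TPM in both livers for 72 genes, and 68 had such a transcript at 50% or more in both. At a limit of 75% there were 53. The 19 genes with 1 transcript count in each of these numbers by construction, and 49 of the 68 had 2 or more transcripts. The same shares over all genes were not computed. For the 58 genes with 2 or more transcripts, the percent of the leading transcript moved by a median of 1.13 points between the livers. The leading transcript differed for Mrpl24, Mrpl51, Mrps10, Mrps11 and Mrps5. By expected counts it was the same for 74 genes and differed for Mrpl1, Mrps10 and Mrps21, so 4 of those 5 kept 1 lead. The largest move was 14.3 points, in Mrps10, where the transcript leading in pup 1 held 52.8% there and 38.5% in pup 2. That of pup 2 held 43.4% and 57.3%, and the gene itself stood at 41.74 and 40.60 TPM.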

How the data were processed

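The genes and lists were chosen with earlier results of these data known. Per the file notes, the assembly was mm10 and the annotation GENCODE M4, with aligner and counter not given in the sources used here. The authors deposited expected counts, which divide reads among alike genes, and TPM and FPKM, which scale them by effective length (length less 99 bases), and the transcript tables hold deposited percent values of each transcript within its gene. The credible bounds of TPM are the authors' too, and their level is not given. The gene tables hold 69691 rows. Symbols, coordinates and gene starts came from GENCODE M21 on GRCm38 by Ensembl identifier, which matched 42462 of 43346 genes. Promoters came from RefSeq GRCm38.p6, and bacterial counterparts from the nomenclature of mammalian mitoribosomes.

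CPM is the expected count over the library total; a count of 0 allows 3 counts, or 0.0712 and 0.0724 CPM, and such limits and intervals cover counting error only. Fold and log2 values between livers used log2(TPM + 1), which understates changes of low genes, over genes with a mean of 1 TPM or more. With 1 group of 2 livers no p-value can be had, so spreads and rules of size were used. Named genes were the 8 highest, the 8 lowest, the 5 highest and 5 lowest ratios, the stalk and S18 genes, any with separate intervals, the differently named subunits, all translation factors, and the ends of other lists; genes named in pairs, Mrpl33 and the transcript changes were chosen after their values were seen. Steps were tested on simulated data. Python 3.11.15, pandas 2.3.3, numpy 2.4.6, scipy 1.17.1 and matplotlib 3.10.9 were used, with BLAST 2.17.0 for sequence searches.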

Additional observations from a re-analysis of the deposited data

How the results depend on the processing

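No paired analysis was possible because there was only 1 group. Of 125 alternative values, 84 stayed within an SD of the main value or within 1.5 times a count. The SD was that between the livers for levels, across genes for the ratio between livers, and of counting for single genes. With 2 livers, the level in either liver alone always lies within that SD, and a filter at 1 TPM removes no gene of the set. The 84 include such values, which could not differ. The share of TPM (0.515%) was 0.567% over protein-coding genes, 0.343% of expected counts, 0.509% by posterior mean TPM and 0.529% with Mrpl33, and 0.511% to 0.518% when either liver was left out. The median TPM (50.4) was 43.0 in FPKM, 49.8 by posterior mean, 55.5 over protein-coding genes, 62.4 over genes that overlap no other and 53.2 with Mrpl33, and 50.16 to 50.58 with either liver alone. The log2 ratio of large over small (0.27) was 0.18 by place, -0.096 with the subunits named otherwise added, 0.16 in CPM, 0.067 from mean log2(TPM + 1) and -0.25 without overlapping genes, and 0.22 to 0.32 with either liver alone. The cause of these changes was not tested. The ratio of the 2 classes (0.90) was 0.089 in CPM, and 0.81 to 0.99 with either liver alone. The SD across genes (1.07) was 1.09 with a pseudocount of 0.1 and 0.98 with 5, and 1.06 to 1.08 with either liver alone. The median ratio between the livers (-0.022) turned to 0.012 in CPM and 0.040 with counts scaled by the median ratio, where 25 genes in place of 46 were lower in pup 2. Separate intervals at any size gave 1 gene in place of 0 with the 2-fold limit. The ratio of cytosolic over mitochondrial ribosomal genes (3.07) was 2.41 in CPM, and 3.03 to 3.10 with either liver alone. In CPM the log2 ratio of the respiratory chain over the set (2.76) was 2.03, and those of the set over translation factors (2.13), assembly factors (2.42) and tRNA synthetases (2.67) were 1.09, 1.30 and 1.2002. Alternatives with Mrpl33, with Mrpl23 and its pseudogene summed, by class, by single gene and by other list in CPM, and for the distance between starts (22 genes at 500 bases and 21 at 200, in place of 23) were chosen after seeing the data. Every gene had 594 counts or more in each liver, and intervals widen at fewer reads.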
